A study of Mus musculus with 5 samples.

Results

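The genes described here make up the chromatin machinery that was measured in pharyngeal arch tissue of the mouse embryo: ATP-dependent nucleosome remodelers, the enzymes that add or remove acetyl and methyl groups on histones, the proteins that read those groups, and the enzymes that methylate or demethylate DNA. Members were chosen by gene symbol, from the families Smarc, Chd, Arid, Kdm, Kat, Kmt2, Hdac, Sirt, Ezh, Eed, Suz12, Cbx, Setd, Dnmt, Tet, Brd and Ing, with Smarcd3 and Kdm5d left out. Of 12393 genes measured by probe sets with 1 annotated gene, 84 were members, with 154 probe sets. The arrays measured 5 samples, all of 1 group, so every result is either a signal set against background or a spread between samples. All samples were wild-type tissue, dissected at E10.5 to hold the pharyngeal arches and labelled as containing the second heart field, from 129P2/OlaHsd mice crossed back to C57BL/6 for 2 generations. Each was a separate tissue isolate, and 10 ng of its total RNA was amplified for an Affymetrix 430A array. The labels name no litter and no sex, and whether isolates shared a litter is not given, so p-values measure only the spread between these samples, which may be technical.

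Nucleosomes block access to DNA, and remodelers of the SWI/SNF, ISWI and CHD families use ATP to slide, evict or space them. Acetylation of histone tails by KAT enzymes loosens chromatin and is read by bromodomains, while HDACs and sirtuins remove it. Methylation marks active promoters when laid by KMT2 complexes and silent developmental genes when laid by Polycomb repressive complex 2, and KDM enzymes erase it. In the arches this machinery matters because neural crest and heart progenitors depend on it. Loss of the remodeler Chd7 underlies CHARGE syndrome and loss of Kmt2d or Kdm6a underlies Kabuki syndrome, both with heart and craniofacial defects.

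Signals are in the scaled units of the deposited table, as mean ± SD with n = 5, and lists of 5 values run from replicate 1 to replicate 5. The background level was the 95th percentile of signal over 206 probe sets of 171 genes from families tied to smell and taste, hair, glands, germ cells and lymphocyte receptors. It stood at a signal of 15.9 to 23.2 on the 5 arrays. The excess of a gene is its mean log2 distance from that level, given with its SE, and a gene was above background where limma's one-sided test gave an adjusted p below 0.05 over all genes. Where a gene had several probe sets, the one with the highest mean log2 signal stands for it. Probe sets differ in how well they bind, so signals of different genes do not rank their transcripts, and only the same probe set is compared between samples.

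Over the 7410 genes with a mean above the level, the median absolute difference between 2 samples ran from 0.23 to 0.37 log2 units. Among marker lists, 5 of 10 genes of the second heart field were above background, a share close to the 54.1% of all genes. Isl1 (1387 ± 223) and Foxc2 (358 ± 129) were among them, while Tbx1, Nkx2-5, Fgf8, Fgf10 and Hand2 were not. Arch mesenchyme gave 8 of 9, pharyngeal endoderm and ectoderm 9 of 10, neurons 10 of 10, endothelium 7 of 10, red blood cells 4 of 8 (again close to the share of all genes), liver and yolk sac endoderm 3 of 9 and leukocytes 1 of 10. The summed signal of the neuron list ran from 3869 in replicate 4 to 6831 in replicate 3, that of the red blood cell list from 8458 in replicate 4 to 16861.5 in replicate 5, and that of the liver and yolk sac list from 240.3 in replicate 4 to 1209.6 in replicate 5. The part of these cell mixtures in the members' values was not tested, and in whole tissue fewer cells of a type and less RNA per cell cannot be told apart. Xist gave 916 in replicate 4 and at most 26.3 elsewhere, and the Y-linked Eif2s3y gave 20.1 in replicate 4 and 769 to 968 elsewhere.

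Most of the chromatin genes were transcribed at a level the arrays could see. Of the 84 members, 69 (82.1%) were above background, where 54.1% of all 12393 genes were, and their median excess was 2.56 log2 units against 0.87 over all genes. In all 5 samples 67 members (79.8%) lay above the level, against 52.4% of all genes. A strict level, raised by casein kinase and interferon receptor probe sets that share the first letters of caseins and interferons, left 38 members (45.2%) against 27.2% of all genes, so the calls of the dimmer members depend on where the level is set. At the bright end, 6 members had an excess over 6 log2 units. They were the heterochromatin proteins Cbx5 and Cbx1, the DNA methyltransferases Dnmt1 and Dnmt3a, the demethylase Kdm2b and the SWI/SNF subunit Smarce1. At the dim end 15 members were not above background, and they are named with their families.

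**Figure D1:**
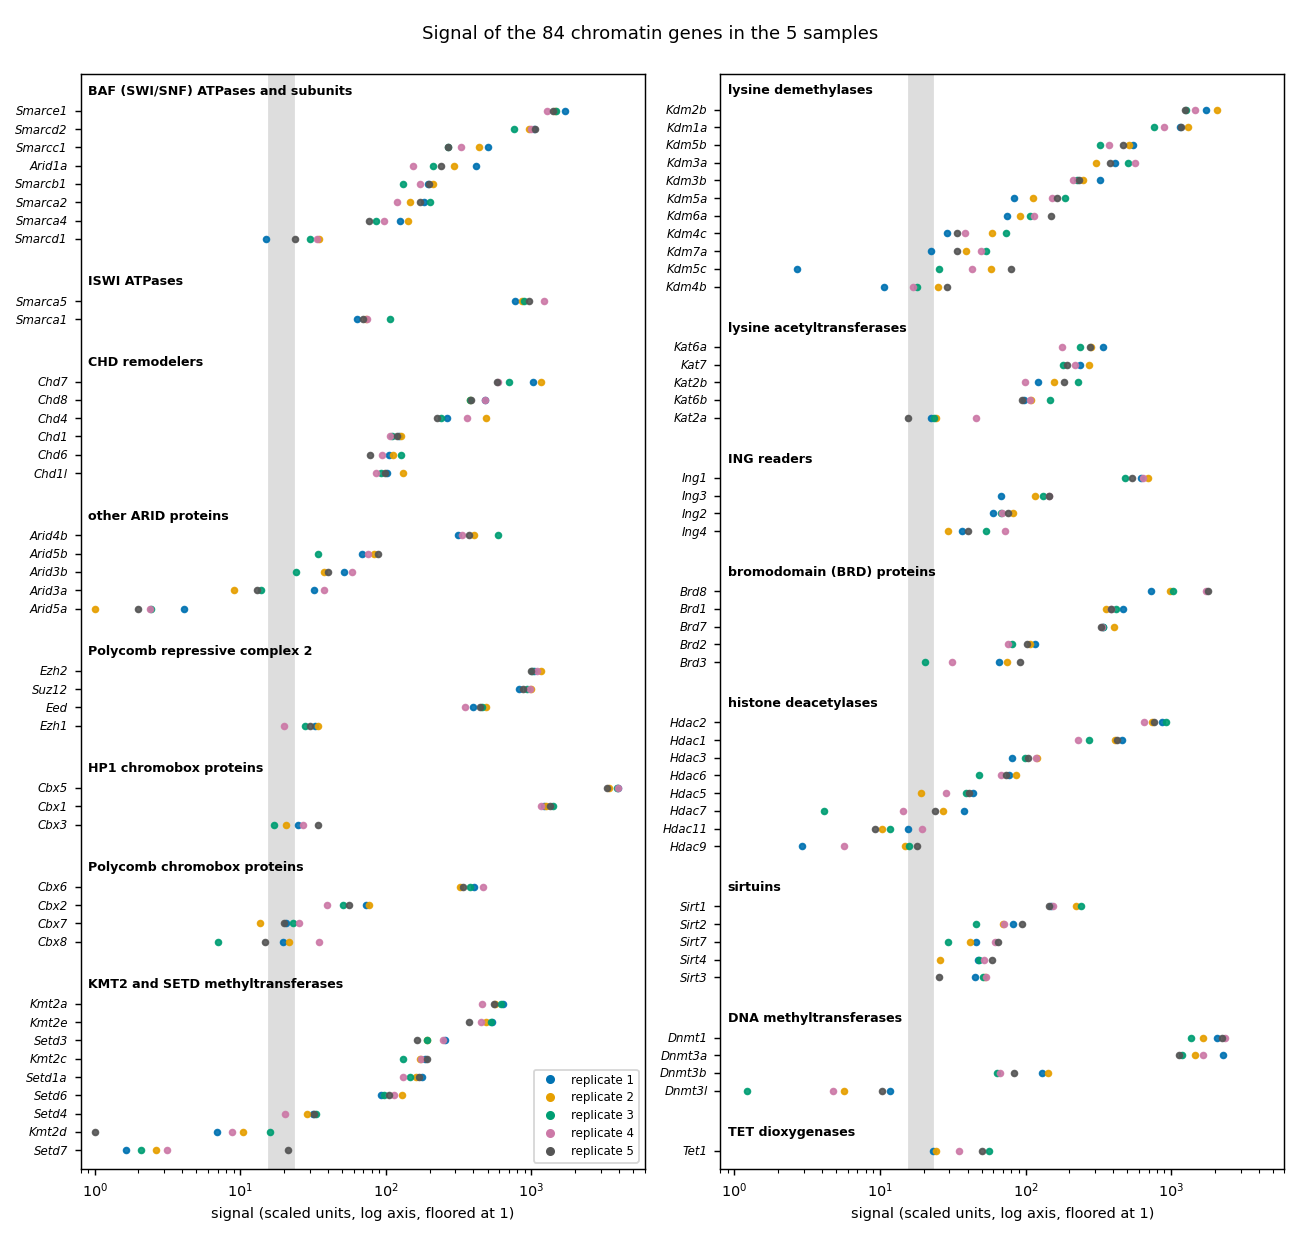
Signal of each of the 84 chromatin genes (scaled units, log axis, values under 1 drawn at 1), with 1 point for each of the 5 samples, grouped by role; the grey band spans the background levels of the 5 arrays, 15.9 to 23.2. Cbx5 lies between 3300 and 3918 in every sample, while Arid5a, Kmt2d, Setd7, Hdac9, Hdac11 and Dnmt3l stay left of or inside the band.

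**Figure D2:**
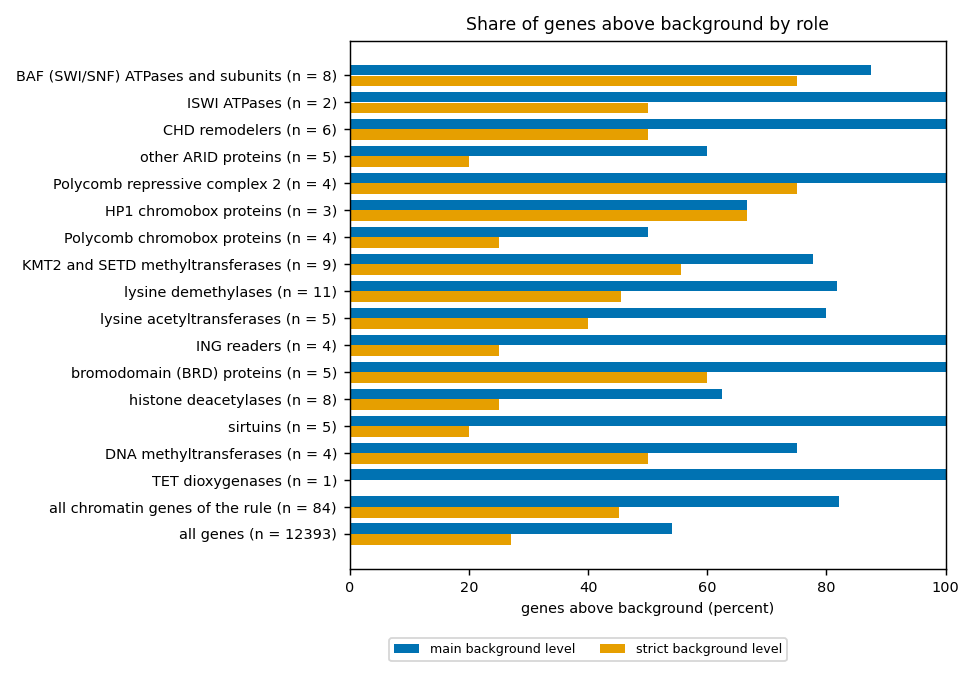
Percent of genes above background in each of the 16 roles, in the 84 chromatin genes together and in all 12393 genes, at the main level and at the strict level; n is the number of genes. At the main level the share was 82.1% for the chromatin genes and 54.1% for all genes, and at the strict level 45.2% and 27.2%.

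The promoters of these genes were rich in CpG, the base pair step that DNA methyltransferases act on and that CpG islands hold in excess. In the 250 bases before the annotated start, taken from RefSeq (GRCm38.p6), 71 of 84 members could be matched, and they held a median of 20 CpG. Genes above background held a median of 17 (5496 of 6704 matched), and all 12393 measured genes a median of 13.5 (9887 matched). All 27025 genes of the promoter table, many of them not on the array, held a median of 6. The members above background (58 matched) held 20 and the members not above background (13 matched) held 17. At least 10 CpG stood in 11 of the 13 members not above background (84.6%) and in 50 of the 58 above it (86.2%). The share over all measured genes with a match was 63.6%. Over all measured genes, at least 10 CpG stood in 80.8% of those above background and in 42.1% of those not above it. Their medians were 17 and 7. Promoters could be matched for 82.0% and 77.2% of these genes, and whether the unmatched genes differ was not tested. A set of 4 promoters, chosen after their values were seen, illustrates each pairing of many or few CpG with a gene above or not above background, with every CpG in capitals and each sequence on the strand of its gene. Ezh2 (chr6:47595031-47595280, minus strand) was above background with 23 CpG, and Smarcd2 (chr11:106267633-106267882, minus strand) with 4. Kmt2d (chr15:98871206-98871455, minus strand) was not above background with 26, and Hdac9 (chr12:34917096-34917345, minus strand, 1 of 2 annotated starts) with 0.
Ezh2: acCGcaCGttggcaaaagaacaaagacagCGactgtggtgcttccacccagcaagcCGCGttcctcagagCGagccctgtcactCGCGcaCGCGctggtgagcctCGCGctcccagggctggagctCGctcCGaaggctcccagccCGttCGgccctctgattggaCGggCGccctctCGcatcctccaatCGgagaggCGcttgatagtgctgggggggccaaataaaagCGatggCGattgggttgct
Smarcd2: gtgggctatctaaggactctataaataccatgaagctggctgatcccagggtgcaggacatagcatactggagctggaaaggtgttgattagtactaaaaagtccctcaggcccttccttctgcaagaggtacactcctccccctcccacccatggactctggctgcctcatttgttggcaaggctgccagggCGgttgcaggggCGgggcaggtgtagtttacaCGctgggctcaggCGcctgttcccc
Kmt2d: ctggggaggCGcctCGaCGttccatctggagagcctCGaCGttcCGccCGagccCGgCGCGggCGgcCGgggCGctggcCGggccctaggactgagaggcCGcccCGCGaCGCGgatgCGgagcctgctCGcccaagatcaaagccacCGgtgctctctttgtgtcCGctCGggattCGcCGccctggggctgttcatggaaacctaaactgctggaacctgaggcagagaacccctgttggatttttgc
Hdac9: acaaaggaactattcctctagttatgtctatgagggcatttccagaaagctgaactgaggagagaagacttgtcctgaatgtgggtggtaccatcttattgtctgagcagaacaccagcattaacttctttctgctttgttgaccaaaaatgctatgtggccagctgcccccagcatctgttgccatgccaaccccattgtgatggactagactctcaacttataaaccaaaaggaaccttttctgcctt
They were picked to fill these pairings and say nothing of how CpG content goes with signal. The motif GGGCGG, bound by SP and KLF factors, was found on either strand in 69 of the members' 103 promoter windows (67.0%), in 60.1% of windows of genes above background and in 32.7% of all 32851 windows. The ETS family motif CCGGAAG stood in 11 windows (10.7%, against 14.9% and 6.91%), the NRF1 motif GCATGCGC in 6 (5.83%, against 5.00% and 2.26%) and the E2F motif TTTGGCGC in 2 (1.94%, against 0.859% and 0.417%), each counted on both strands. A match of letters describes the sequence and does not show binding.

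The SWI/SNF or BAF complex is built around an ATPase, either Smarca4 (BRG1) or Smarca2 (BRM), with a core of Smarcb1, Smarcc1, Smarcd and Smarce1 and the DNA-binding subunit Arid1a. Of its 8 measured members 7 were above background, and 6 at the strict level. Smarce1, an HMG-box subunit, gave 1714, 1444, 1483, 1286 and 1399 (mean 1465 ± 157, excess 6.24 ± 0.14). Smarcd2, a subunit with several alternatives, gave 1047, 964, 762, 994 and 1058 (excess 5.64 ± 0.14). Both were steady on these probe sets, though replicate 3 was the lowest sample of Smarcd2. The other probe set of Smarce1 gave 581, 625, 767, 738 and 910, lowest in replicate 1, where the brightest was highest. Arid1a, the subunit that defines canonical BAF, gave 418, 293, 210.5, 154 and 238, highest in replicate 1 and lowest in replicate 4, a 2.71-fold range. Its dimmer probe set had the same highest and lowest samples over a 1.34-fold range (56.1, 42.5, 47.6, 41.8 and 49.8). The scaffold Smarcc1 averaged 359.9 ± 105, the core subunit Smarcb1 181 ± 31.02, the ATPase Smarca2 164 ± 31.6 and the ATPase Smarca4 106 ± 27.6. Smarca4 was above the main but not the strict level, with 125, 143, 86.05, 97.1 and 77.01. Smarcd1, an alternative to Smarcd2, was not called at 15.1, 34.9, 30.2, 33.6 and 23.7 (excess 0.45 ± 0.25, adjusted p = 0.0789, limma), below the level in replicate 1 alone, and it passed without replicate 1 (excess 0.61).

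Among the other remodelers all members were above background, 2 of the ISWI and 6 of the CHD family. The ISWI ATPase Smarca5 (SNF2H), which spaces nucleosomes, gave 770.1, 858, 891, 1222 and 966 (excess 5.59 ± 0.14), and its X-linked relative Smarca1 (SNF2L) gave 63.4, 73.02, 107, 74.2 and 69.8, with replicate 3 on top. Chd7, which binds enhancers in neural crest and heart progenitors, gave 1023, 1164, 702, 590.2 and 581 (excess 5.34 ± 0.20). Replicates 1 and 2 held its 2 highest values, over a 2.00-fold range that did not pass the test of spread given below. Chd8, a repressor of Wnt targets whose human counterpart is an autism gene, gave 480.3, 376, 379, 482 and 385 and was steady. Chd4, the ATPase of the NuRD complex, ran from 224 in replicate 5 to 487 in replicate 2, and all 3 of its probe sets peaked in replicate 2. Chd1, a remodeler of transcribed genes, gave 117 ± 8.82, Chd6 103 ± 18.2 and the PARP-activated Chd1l 102 ± 17.2, none of which passed the strict level.

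The other ARID proteins, which bind DNA outside SWI/SNF, gave 3 of 5 above background (60.0%, close to the 54.1% of all genes). At the strict level 1 passed. Arid4b, a subunit of the Sin3 deacetylase complex, gave 315, 402, 588, 334 and 373 (excess 4.35 ± 0.17), and 2 of its 5 probe sets were above background. Arid5b, a partner of the demethylase Phf2, gave 68.5, 83.5, 34.1, 75.5 and 87.8, low in replicate 3. Arid3b gave 42.4 ± 13.3 and passed the main level only. Its relative Arid3a gave 32.1, 9.001, 13.8, 37.4 and 13.01 and lay above the level in 2 samples, with an excess of -0.09 ± 0.33. Arid5a, an RNA-binding regulator of inflammatory transcripts, gave 2.34 ± 1.21, with every sample below the level.

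Polycomb repressive complex 2 silences developmental genes, the Hox clusters among them, by methylating histone H3, with Ezh2 or Ezh1 as its enzyme and Eed and Suz12 as obligate partners. All 4 genes were above background. Ezh2 gave 1036, 1169.7, 1012, 1098 and 987 (mean 1060.5 ± 73.6, excess 5.78 ± 0.14). Suz12 gave 822, 994, 937, 974 and 879.9 (excess 5.58 ± 0.14), and 5 of its 6 probe sets were above background. On these probe sets the 2 genes were among the steadiest of all members, with an SD of 0.10 and 0.11 log2 units, and both were highest in replicate 2. The other called probe sets of Suz12 had an SD of 0.21 to 0.27 log2 units and peaked in replicate 1, 2 or 3. Eed, which reads the mark the complex makes, gave 399, 485, 459, 351 and 444. Ezh1, the enzyme of non-dividing cells, gave 32.7, 34.5, 27.7, 19.99 and 30.2, an excess of 0.57 ± 0.24 (adjusted p = 0.0259, limma) that did not pass without replicate 1 (0.48) or without replicate 2 (0.43). Enzyme and partners of the Ezh2 complex were thus far above the level, and Ezh1 close to it.

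Chromobox proteins read methylated histone H3. The HP1 proteins Cbx1, Cbx3 and Cbx5 bind the heterochromatin mark, and 2 of 3 were above background (66.7%, against 54.1% of all genes). Cbx5 (HP1 alpha) had the highest excess of all members, 7.58 ± 0.12, with 3918, 3418, 3878, 3913 and 3299.6, and an SD of 0.12 log2 units. Cbx1 (HP1 beta) gave 1228, 1263, 1413, 1161 and 1341 (excess 6.05 ± 0.13). Both were steady, and they shared neither their highest nor their lowest sample. Cbx3 (HP1 gamma) rested on 1 probe set with 24.8, 20.8, 17.1, 27.05 and 34.4, not above background (excess 0.32 ± 0.25, adjusted p = 0.181, limma), which does not show that its RNA was absent. The Polycomb chromobox proteins target Polycomb repressive complex 1, and 2 of 4 were above background (50.0%, close to the 54.1% of all genes). Cbx6 gave 401, 324, 381, 466 and 338 (excess 4.30 ± 0.15), Cbx2 gave 72.8, 76.9, 50.7, 39.5 and 55.9 (excess 1.58 ± 0.21), and only Cbx6 passed the strict level. Cbx7, the chromobox of embryonic stem cells, gave 20.8, 13.6, 22.9, 25.4 and 20.03, and Cbx8 gave 19.7, 21.8, 7.09, 34.7 and 14.7, both straddling the level.

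Methyltransferases of the KMT2 and SETD families gave 7 of 9 above background. Kmt2a (MLL1), which maintains Hox gene transcription, gave 643, 562, 615, 458 and 553 (excess 4.87 ± 0.16). Kmt2e (MLL5) gave 536, 491, 527, 448 and 372 (excess 4.61 ± 0.16), and on these probe sets both were lowest in replicates 4 and 5. The other probe set of Kmt2a gave 431, 415, 403, 541 and 407, highest in replicate 4. That of Kmt2e gave 311, 349, 391, 305 and 328, lowest in replicate 4. The enhancer methyltransferase Kmt2c averaged 171 ± 23.2, the promoter enzyme Setd1a 157 ± 18.04, the actin histidine methyltransferase Setd3 209.7 ± 38.98 and Setd6, which methylates a subunit of NF-kappaB, 107 ± 14.7. Setd4 gave 29.3 ± 5.27 and was called (adjusted p = 0.0203, limma), but lost the call without replicate 1, 2 or 3 (excess 0.51, 0.51 and 0.52). Kmt2d (MLL4), a Kabuki gene and close relative of Kmt2c, gave 6.97, 10.4, 15.9, 8.77 and 1.01 on its 1 probe set, under the level in every sample. Setd7 stood at 1.63 to 3.14 in replicates 1 to 4 and at 21.3 in replicate 5, again below the level.

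The lysine demethylases were the largest family, with 9 of 11 above background and 5 at the strict level. Kdm2b, which brings a variant Polycomb complex to CpG islands, gave 1727, 2061, 1263, 1455 and 1240.4 (excess 6.30 ± 0.16). Kdm1a (LSD1), the enzyme of the CoREST complex, gave 1156, 1311, 768, 898 and 1171 (excess 5.76 ± 0.16). Both peaked in replicate 2, and replicates 3 and 4 lay lowest for Kdm1a. Kdm5b, an eraser of the active promoter mark, gave 445 ± 92.9, its relative Kdm5a 140.1 ± 41.8, the hypoxia-induced Kdm3a 435 ± 103 and Kdm3b 249 ± 44.6. Kdm7a averaged 39.5 ± 12.4, and Kdm4c, an eraser of the heterochromatin mark, gave 28.9, 58.4, 73.1, 38.7 and 33.7, highest in replicate 3. Kdm4b, a hypoxia target, gave 10.7, 25.2, 17.8, 16.9 and 28.8, on both sides of the level, and was not called.

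Of the 4 X-linked members, Kdm5c, Kdm6a, Smarca1 and Hdac6, the first pair escape X inactivation, so female cells transcribe both copies. Kdm6a (UTX), the other Kabuki gene, gave 74.8, 91.6, 108, 114 and 149.7 (excess 2.44 ± 0.17). The other called probe set of Kdm6a gave 79.2, 79.7, 109, 99.3 and 66.0, lowest in replicate 5, where the brightest was highest. Kdm5c gave 2.71, 57.6, 25.4, 42.5 and 80.04. In replicate 4, the sample with the Xist signal, Kdm6a was the second highest, Kdm5c the middle value of the 5, Smarca1 the second highest, and Hdac6 the second lowest (77.5, 85.8, 48.2, 67.7 and 73.6). A comparison by sex was not made, since 1 sample stood against 4. Kdm5c had the widest spread of the members above the level, an SD of 1.94 log2 units, with replicate 1 far below the others. It was not above background (excess 0.47 ± 0.69, adjusted p = 0.454, limma), but was so without replicate 1 (excess 1.26). Its second probe set was no more even, with 0.332, 1.57, 19.6, 29.1 and 5.30, low in replicates 1 and 2.

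Acetyltransferases write the mark that opens chromatin, and 4 of 5 were above background. Kat6a (MOZ), which sets segment identity in the arches through Hox genes, gave 343, 283, 235, 178 and 278 (excess 3.74 ± 0.18). Kat7 (HBO1), tied to replication origins, gave 235, 274, 179.6, 220.1 and 192 (excess 3.50 ± 0.18). Kat6a was lowest in replicate 4 and Kat7 in replicate 3. Kat2b (PCAF) averaged 158 ± 51.8 and Kat6b 111 ± 21.3, above the main level but not the strict one. Kat2a (GCN5), the enzyme of the SAGA complex, gave 22.5, 24.3, 23.5, 45.4 and 15.5, highest in replicate 4 and under the level in replicate 5. It was not called (adjusted p = 0.174, limma), though it was without replicate 5 (excess 0.59).

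The ING proteins read the active promoter mark for acetyltransferase and deacetylase complexes, and all 4 measured members were above background. Ing1, of the Sin3 complex, gave 619, 692, 483, 640.2 and 538 (excess 4.94 ± 0.16), and Ing3, of the Tip60 complex, gave 67.96, 116, 132, 145 and 146 (excess 2.60 ± 0.18). On its brightest probe set Ing3 was low in replicate 1, while Ing1 was not. The other called probe sets of Ing3 did not share this, and were lowest in replicate 3, at 84.8 and 61.4. The brighter of them was highest in replicate 1, at 137. Ing2 averaged 70.8 ± 8.33 and Ing4 46.4 ± 16.8.

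Bromodomain proteins bind acetylated histones, and all 5 were above background. Brd8, a subunit of the Tip60 complex, gave 725, 988, 1038, 1745 and 1801 (excess 5.94 ± 0.15). Replicates 4 and 5 lay above the other 3 samples, a 2.48-fold range. Its other probe sets did not set replicates 4 and 5 apart, with 195, 262, 209, 224 and 241 on the second brightest and 172, 175, 204, 163 and 203 on the next. Brd1, a scaffold of the HBO1 and MOZ complexes, gave 468, 355, 417, 385 and 384 (excess 4.38 ± 0.16) and was steady. Brd7, of the PBAF form of SWI/SNF, averaged 349.6 ± 31.9 and the BET protein Brd2 96.5 ± 17.6. Brd3, another BET protein, gave 66.2, 74.3, 20.5, 31.5 and 91.5, low in replicates 3 and 4. Its second brightest probe set was lowest in the same 2 samples, over a smaller range (41.1, 42.5, 35.3, 31.8 and 44.3).

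Histone deacetylases gave 5 of 8 above background (62.5%, against 54.1% of all genes). Class I gave 3 of 3 and class II 2 of 4, the latter close to the share of all genes. The class I enzymes Hdac1, Hdac2 and Hdac3 are the catalytic subunits of the Sin3, NuRD, CoREST and NCoR complexes. Hdac2 gave 864, 739, 922, 655 and 757 (excess 5.34 ± 0.15), Hdac1 gave 459, 410.1, 274, 227 and 426 (excess 4.17 ± 0.18), and both were lowest in replicate 4. Hdac3 averaged 104 ± 15.97. Of the class II enzymes, Hdac6, the tubulin deacetylase, averaged 70.5 ± 14.1 and the signal-responsive Hdac5 34.2 ± 10.2, and both were called. Hdac7, the class II enzyme of endothelium, gave 37.7, 26.9, 4.12, 14.4 and 23.8, above the level in 3 samples but not called. Hdac9 (11.4 ± 6.67) and the class IV enzyme Hdac11 (13.3 ± 4.25) stayed below the level in every sample.

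Sirtuins are deacylases that need NAD+, and all 5 measured were above background, though only Sirt1 passed the strict level. The nuclear Sirt1 gave 149, 221, 239, 155 and 144, higher in replicates 2 and 3 than in the other samples. Sirt2, which is mostly cytoplasmic, gave 82.2, 69.9, 45.4, 70.8 and 94.1 (excess 1.87 ± 0.19). The nucleolar Sirt7 averaged 48.7 ± 14.8, and the mitochondrial Sirt4 and Sirt3 averaged 46.3 ± 12.4 and 45.6 ± 11.9.

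DNA methylation is copied at replication by Dnmt1 and laid anew by Dnmt3a and Dnmt3b. These 3 enzymes were above background, and the germ cell cofactor Dnmt3l was not. Dnmt1 gave 2071, 1663, 1373, 2330.0 and 2220.3 (excess 6.62 ± 0.13) and Dnmt3a gave 2259.6, 1469, 1191, 1646 and 1125 (excess 6.27 ± 0.16). Replicate 3 was the lowest sample of Dnmt1, and replicate 1 stood highest for Dnmt3a. Dnmt3b gave 129, 142, 63.5, 67.2 and 82.9, with its 2 highest values in replicates 1 and 2. Dnmt3l gave 11.7, 5.62, 1.22, 4.75 and 10.3, below the level in each sample. Tet1, which oxidises methylcytosine, was the 1 TET gene measured and gave 23.2, 24.2, 55.9, 34.9 and 50.5 (excess 0.88 ± 0.22), highest in replicates 3 and 5, and did not pass the strict level.

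The spread of each member over the 5 samples was next set against that of genes with similar signal. Of the 74 members with a mean above the level, 0 passed the F test of their variance against limma's trend after adjustment, where 6 of 7410 genes did (0.081%). At an unadjusted p below 0.05 there were 5 members (6.76%) against 5.55% of all genes. They were Kdm5c, with a variance 15.3 times the trend, Brd8 (5.72 times), Brd3 (5.53), Arid1a (3.37) and Chd7 (3.34). The adjusted p in limma was 0.0881 for Kdm5c and 0.698 to 0.896 for the other 4. Kdm5c passed when no filter on low signal was set (adjusted p = 0.0122, limma) and without replicate 2 (adjusted p = 0.0196), but without replicate 1 the lowest adjusted p of any member was 0.517. The median SD of the members was 0.32 log2 units, against 0.31 over all genes above the level, which were not matched to the members by signal. The highest sample exceeded the lowest by over 2 times in 27 members (36.5%, against 29.9% of all genes) and by less than 1.5 times in 21 (28.4%, against 30.7%). In 7 of the 74 members (9.46%) 1 sample lay far from the other 4 by Dixon's criterion, against 5.92% of all genes.

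**Figure D3:**
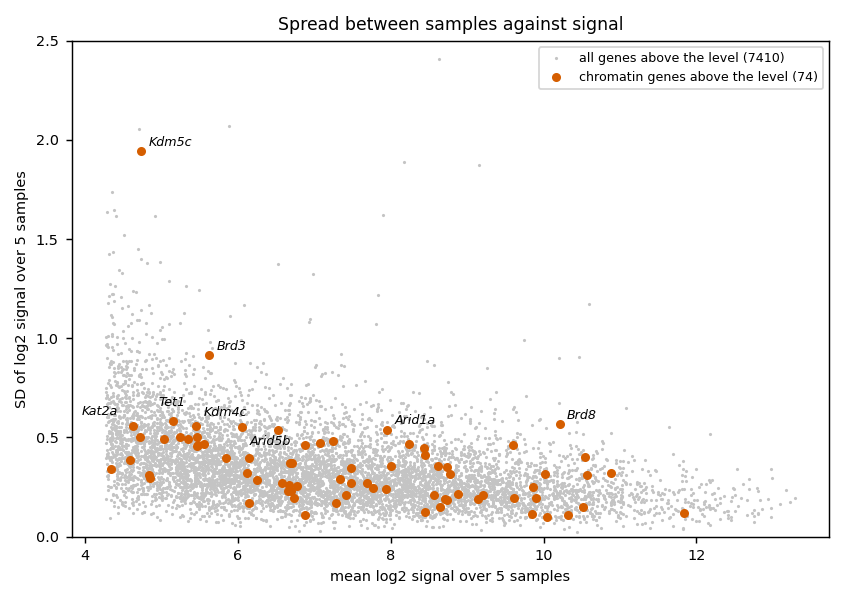
SD of log2 signal over the 5 samples against mean log2 signal, for the 7410 genes with a mean above the background level (grey) and the 74 chromatin genes among them (orange), with the 8 of largest SD named. Kdm5c (SD 1.94) and Brd3 (SD 0.91) stand above most genes of like signal, and Ezh2, Cbx1, Suz12 and Cbx5 lie at an SD of 0.10 to 0.12.

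Genes of some families had their highest sample in common on the probe sets that stand for them. The members' median lay 0.08 log2 units above their own mean in replicate 1 and 0.05 above in replicate 2, and it was -0.06, -0.03 and -0.02 in replicates 3 to 5, where the medians of all genes above the level were 0.01, 0.02, -0.02, -0.0045 and 0.05. Replicate 2 held the highest value of 22 of the 74 members (29.7%), against 15.7% of all genes, and the lowest of 8 (10.8%, against 15.3%). On their brightest probe sets, all 4 genes of Polycomb repressive complex 2 and 4 of 6 CHD genes peaked there. Chd1, 1 of these CHD genes, had a 1.19-fold range, and its other called probe sets both peaked in replicate 4. Also on the brightest probe sets, replicate 1 was the highest sample of 4 of 7 KMT2 and SETD genes. It was the lowest sample of 5 of 10 demethylases. Over all genes it was the highest of 21.1% and the lowest of 20.9%. The other probe sets of Kmt2a, Kmt2e and Setd1a, all called, peaked in replicates 4, 3 and 2, and Setd3 had 1 probe set. The other called probe set of the demethylase Kdm6a was lowest in replicate 5. In SWI/SNF, 3 of 8 members were highest in replicate 1 and 3 in replicate 2 (21.1% and 15.7% of all genes), with medians of 0.21 and 0.23 against -0.25 in replicate 3. Over the members, the closest pair of samples was replicates 3 and 5, whose values differed by a median of 0.24 log2 units, and the farthest was replicates 1 and 3 (0.50, against 0.35 over all genes). These families were picked from 16 roles after their values were seen, and the counts carry no test. Beside them, the ratio of 3' to 5' signal of the Gapdh control probe sets was 3.73 in replicate 1, 2.78 in replicate 2 and 2.89 to 3.12 elsewhere, and that of the actin controls was 3.36 in replicate 2 and 4.34 to 4.82 elsewhere. The part of RNA quality in the replicate 2 values was not tested.

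How far a member's value rests on 1 probe set could be checked for 44 members with 2 or more. In 22 of them all probe sets were above background, in 7 none was, and in 15 (34.1%) they disagreed, close to the 37.7% of all genes with several probe sets. Of 28 members with 2 called probe sets, the 2 brightest had their highest sample in common in 9 (32.1%, against 31.1% of all genes) and their lowest in 9 (32.1%, against 28.9%). Dnmt1 was an example of a partial match. Its second probe set gave 284, 320.3, 189.9, 208 and 234, lowest in replicate 3 like the brightest, but highest in replicate 2, where the brightest had its second lowest value. The second probe set of Dnmt3a gave 358, 297, 382, 291 and 287 and did not share the peak of replicate 1, though both were lowest in replicate 5. Cbx5 was steady on its brightest probe set, while the next gave 166, 216, 286, 509 and 210.1, a 3.07-fold range with replicate 4 on top. Chd4 was another partial match. Its other probe sets gave 111, 119, 48.2, 50.1 and 86.1 and 73.3, 79.2, 35.2, 41.02 and 29.6, highest in replicate 2 like the brightest, while the second brightest was lowest in replicate 3 and the brightest in replicate 5. Of the 84 members, 8 stood on a probe set of the _s_at kind and Dnmt1 on 1 of the _x_at kind, which can also bind transcripts of other genes. With plain probe sets only, the excess of Cbx1, Kat2b and Smarca2 turned negative, and averaging a gene's probe sets did the same to Arid5b, Cbx2, Ezh1 and Setd4.

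**Figure D4:**
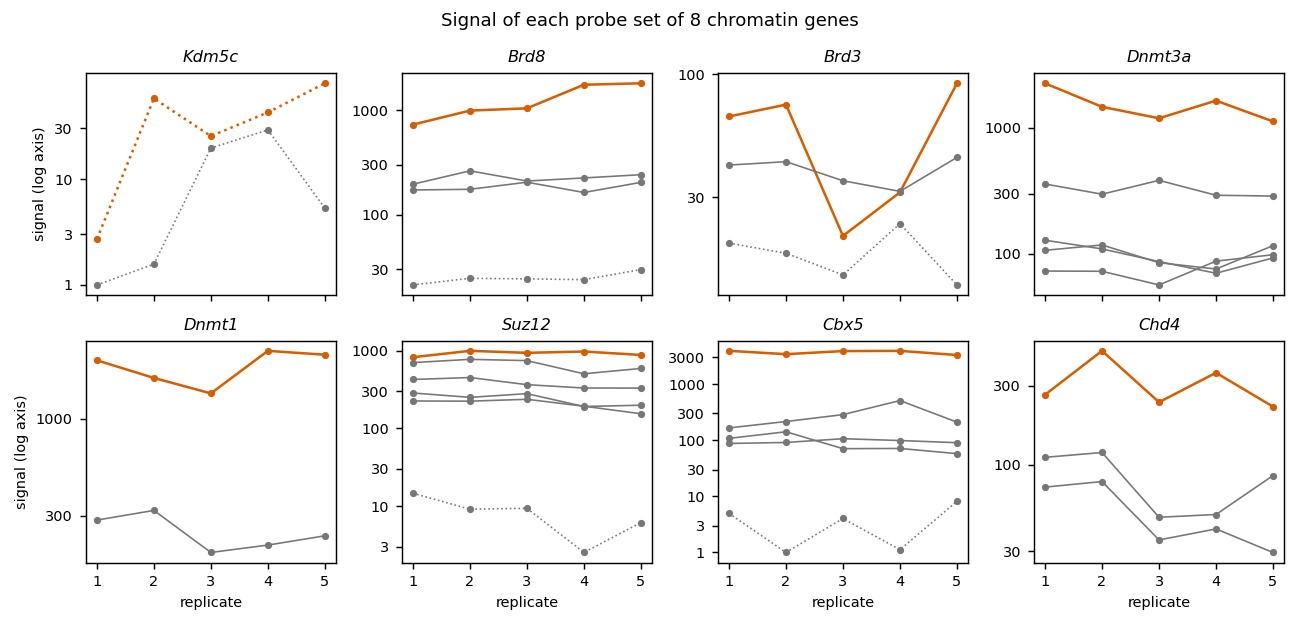
Signal (log axis, values under 1 drawn at 1) of every probe set of 8 chromatin genes in the 5 samples, with the brightest probe set in orange and the others in grey; dotted lines mark probe sets not above background, and lines only join the points of 1 probe set, since replicates have no order. The brightest Brd8 probe set spans 725 to 1801, while the next spans 195 to 262, and the 3 probe sets of Chd4 all peak in replicate 2.

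Other genes of the same complexes, which the symbol rule does not take in, gave a like picture. Of 120 listed, 92 were measured, and 74 (80.4%, against 54.1% of all genes) were above background. At the strict level 38 were, and the median excess was 2.44 log2 units. In SWI/SNF 8 of 14 passed (57.1%, close to the share of all genes), with beta-actin, Actb (4974 ± 535), and Ss18 (1605 ± 186). The 6 that did not were Actl6b, Dpf1, Dpf3, Bcl7a, Bcl7b and Bcl11b, and Actl6b and Dpf1 are subunits of the complex of mature neurons. NuRD, Sin3 and CoREST partners gave 14 of 16, with the histone chaperones Rbbp4 (6891 ± 510.4) and Rbbp7 (2023 ± 139.8), which Polycomb repressive complex 2 also uses. Other Polycomb subunits gave 13 of 16, with Yaf2 (1229 ± 226) and the ubiquitin ligase Rnf2 (1046 ± 159). Other methyltransferases and COMPASS subunits gave 16 of 18, with the histone H4 enzyme Kmt5a (898 ± 327) and the COMPASS subunit Dpy30 (761 ± 137). Other acetyltransferase genes gave 7 of 8, with Epc1 (1545 ± 221) and Hat1 (1258 ± 211), and other remodelers and demethylases 14 of 16, with Atrx (951 ± 155) and Baz1b (586 ± 113). Readers of methylated DNA gave 2 of 4 (50.0%, again close to the share of all genes). Uhrf1, which recruits Dnmt1 to replicated DNA, gave 2167, 2254, 1573, 1744 and 1766, highest in replicates 1 and 2, and Mbd1 gave 122 ± 19.4.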

How the data were processed

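The deposited table held linear intensity values, 1 for each probe set on each array, which the authors made with GCOS, per the submitters' processing notes. Its version and settings are not given in the labels used here. Of 22690 probe sets, 64 were controls, 691 had several genes, 1555 had none, and 20380 had 1 gene. Symbols were checked by Entrez ID against RefSeq (20351 matched, 0 changed). Values under 1 were set to 1 before log2 was taken.

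Detection was an intercept fit on log2 signal minus the level of the array with limma 3.58.1 (R 4.3.3, lmFit, eBayes with trend and robust, one-sided), and spread an F test of each variance against limma's robust trend, both with Benjamini-Hochberg adjustment over all genes tested. On simulated data of 12393 genes detection found 62.7% of the genes placed 0.5 log2 units over the level and 100% of those placed 1 or 2 over it. Of the simulated calls, 0.115% fell on genes whose set mean was not over the level. The simulation did not model unexpressed genes with signal over the level or the choice of the brightest probe set. That share therefore does not measure false calls in the real data. The spread test on 7410 genes recovered 60% at 3 times the usual SD and 95% at 6 times.

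Members and lists were chosen with earlier results of these data known. An earlier level also drew on casein kinases and interferon receptors, 29 probe sets of 10 genes, and is kept as the strict alternative. Every member is named with its family. Values by sample are given for the 2 brightest members of each role, the 8 of largest SD, the 4 nearest the level on each side and the X-linked Kdm5c, Kdm6a and Smarca1, and for others, the X-linked Hdac6 among them, chosen after their values were seen. Of the other chromatin genes the 2 brightest of each list are named.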

Additional observations from a re-analysis of the deposited data

Results flagged for a closer look

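In 8 of the 84 members 1 sample lay far from the other 4, meaning that its gap to the nearest sample took up more than 0.71 of the range of log2 signal (Dixon's 95% limit for 5 values). Chance gives about 1 in 20. Among the members with a mean above the level it was 7 of 74 (9.46%), against 5.92% of all 7410 such genes. Brd7 had the highest share, 0.854, with 406 in replicate 2 and 329.8 to 339.9 elsewhere. Sirt3 followed with 0.767, from 25.3 in replicate 5 against 44.9 to 53.5. For Setd7 the share was 0.745, with replicate 5 high, though under the background level. Arid5b (0.738), Kmt2c (0.732) and Smarcd2 (0.717) were low in replicate 3, at 34.1, 132 and 762. Sirt4 (0.724) was low in replicate 2 at 25.8, and Setd4 (0.717) in replicate 4 at 20.3. Setd7 was too dim for the F test of spread, which the other 7 did not pass.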

How the results depend on the processing

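The number of members above background fell from 69 to 38 at the strict level, and that of other chromatin genes from 74 to 38. It was 72 and 75 at the 90th percentile, 59 and 67 at the 99th, and 53 and 61 with plain probe sets only, which cover 69 members. With the other settings it was 63 to 69 for the members and 67 to 74 for the other genes, and without 1 replicate 67 to 70 and 74. The excess of called members turned negative at the strict level for Arid3b (-1.48), Arid5b (-0.77), Brd2 (-0.25), Brd3 (-1.20), Cbx2 (-0.98), Chd1l (-0.17), Chd6 (-0.15), Dnmt3b (-0.30), Ezh1 (-1.99), Hdac3 (-0.13), Hdac5 (-1.79), Hdac6 (-0.71), Ing2 (-0.68), Ing4 (-1.36), Kat6b (-0.044), Kdm4c (-1.37), Kdm6a (-0.11), Kdm7a (-1.58), Setd4 (-1.97), Setd6 (-0.087), Sirt2 (-0.68), Sirt3 (-1.36), Sirt4 (-1.34), Sirt7 (-1.27), Smarca1 (-0.57), Smarca4 (-0.14) and Tet1 (-1.68). At the 99th percentile it did so for Ezh1 (-0.21), Hdac5 (-0.0056) and Setd4 (-0.19). With the mean of all probe sets it did so for Arid5b (-0.32), Cbx2 (-0.082), Ezh1 (-0.40) and Setd4 (-0.41), and with plain probe sets only for Cbx1 (-0.28), Kat2b (-1.90) and Smarca2 (-0.0101). The number of members that varied between samples was 0, or 1 with no filter on low signal, and 0 to 1 without 1 replicate, in each case Kdm5c. The median SD of members was 0.32, and 0.35 with no filter, 0.26 with the filter at the strict level, 0.27 with the mean of all probe sets and 0.29 to 0.33 without 1 replicate. No paired analysis was possible because there is 1 group. Signals near the level limit what can be said of the dimmer members, and the number of arrays limits the precision of every value.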
